A study of Rattus norvegicus with 36 samples.

Results

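The genes described here are 5 members of the piRNA pathway, Piwil1, Tdrd1, Tdrd6, Asz1 and Tex15, followed through male germ cell development of the rat. Every region that the authors annotated to a transcript of one of these genes was taken. This gave 20 of the 29951 annotated regions of the study: 9 in Piwil1, 4 in Tdrd1, 4 in Tdrd6, 2 in Tex15 and 1 in Asz1. The study profiled DNA methylation by bisulfite sequencing of captured regions in 36 samples, 4 at each of 9 stages. The stages were gonocytes at GD16, GD18 and GD20, spermatogonia at PND5, spermatids R1-8, R9-12, R13-14 and R15-17, and spermatozoa. All animals were untreated Sprague-Dawley rats of the genotype GFP-GCS, which carries a green fluorescent protein specific to germ cells. Germ cells were collected by fluorescence-activated cell sorting, and the DNA of spermatozoa was extracted with a kit of its own. No expression was measured, so the labelled cell types could not be checked against marker genes.

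PIWI-interacting RNAs (piRNAs) are small RNAs of the germ line that are bound by PIWI proteins and silence transposons. In mouse gonocytes they also direct new DNA methylation to transposon copies in the nucleus. PIWI proteins work together with Tudor domain proteins, which recognise their methylated arginines and gather them in granules near mitochondria or in the chromatoid body of spermatids. From mouse, Piwil1 (MIWI) is the PIWI protein of meiotic and haploid cells, Tdrd1 is a scaffold of the granules between mitochondria, and Tdrd6 is a component of the chromatoid body. Asz1 (GASZ) anchors these granules to mitochondria, and Tex15 is a nuclear factor of piRNA-directed methylation in mouse.

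The values are the authors' methylation levels of a region in a stage, given as a fraction and printed here as a percentage. They are stage means over the CpGs of the region with no value per sample, so no level below has an SD, and the number of reads behind it is unknown. The largest adjusted p in the authors' deposited table of any step was 0.05, and the smallest difference was 30 percentage points between fetal or neonatal stages and 10 points from R1-8 onward. Whether the authors' test ran over CpGs or over samples is not stated. Its p-values are therefore quoted as deposited and are not a measure of the spread between samples. A stage is without a level where the region was not listed in a comparison with that stage. Coordinates follow the region lists; their genome build is not stated in the labels or headers.

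The promoters of Asz1 and Piwil1 are shown because they mark the contrast among these genes: the listed region of Asz1 was annotated as its promoter, whereas the 9 listed regions of Piwil1 all lie in introns. The sequences are RefSeq windows of build GRCr8, from 250 bases before to 50 bases after the start of transcription, with every CpG in capitals. The Asz1 window is chr4:47421927-47422226 and that of Piwil1 chr12:33606534-33606833, both on the minus strand. The listed regions have coordinates of another annotation and were not placed on these windows.
Asz1: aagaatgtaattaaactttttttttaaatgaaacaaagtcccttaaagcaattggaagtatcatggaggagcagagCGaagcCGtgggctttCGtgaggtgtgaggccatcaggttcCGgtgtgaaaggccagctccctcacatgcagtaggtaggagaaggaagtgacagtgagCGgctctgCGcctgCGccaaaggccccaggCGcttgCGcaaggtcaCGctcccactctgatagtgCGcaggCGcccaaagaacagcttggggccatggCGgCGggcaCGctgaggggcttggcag
Piwil1: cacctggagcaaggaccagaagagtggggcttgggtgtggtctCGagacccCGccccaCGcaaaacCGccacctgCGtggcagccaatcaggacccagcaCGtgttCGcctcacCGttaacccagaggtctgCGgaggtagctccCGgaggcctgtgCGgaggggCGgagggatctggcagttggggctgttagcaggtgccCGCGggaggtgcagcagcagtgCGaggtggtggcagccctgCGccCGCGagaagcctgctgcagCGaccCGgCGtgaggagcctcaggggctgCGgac

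The 2 windows differed in CpG content. The Asz1 window held 15 CpGs and had a GC content of 55.7%, and that of Piwil1 held 22 CpGs at 68.7%. The window of Tdrd1 held 26 CpGs and that of Tdrd6 35. The median over 33469 promoters of the same length was 7 CpGs, and 32.0% of them had at least as many as Asz1 and 6.13% at least as many as Tdrd6. The E2F-type motif TCCCGC and the E-box CACGTG, which do not overlap each other, were searched on both strands. Each occurred once in the windows of Tdrd1 and Piwil1 and was not found in those of Asz1 and Tdrd6. Of all promoters 18.7% held TCCCGC, 6.42% held CACGTG and 1.78% held both. These matches are letters in a window and not sites of binding.

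Piwil1, Tdrd1, Tdrd6 and Tex15 gained methylation in gonocytes and spermatogonia, and the promoter of Asz1 and 1 region of Tdrd6 changed in spermatids. From GD18 to GD20, 14 of the 20 regions (70%) gained and none lost, beside 81.7% of all annotated regions with a gain and 0% with a loss. From GD20 to PND5 again 14 regions (70%) gained and none lost, beside 79.3% with a gain and 0.0067% with a loss. The shares of the members are near those of all annotated regions, so that listing as such did not set the 5 genes apart. All annotated regions come from the authors' sets of changed regions, and 28613 of the 29951 are in their gain groups. The shares are therefore not rates of change among all captured regions. No region of these genes was listed from GD16 to GD18, a step at which 103 annotated regions of the study (0.34%) lost methylation. Of the 18 gain regions of Piwil1, Tdrd1, Tdrd6 and Tex15, 10 have a level at all 3 stages, 4 have none at PND5 and 4 have none at GD18. The levels given ranged from 3.8% to 9.5% at GD18 (14 regions), from 23.6% to 86.4% at GD20 (18 regions) and from 90.1% to 98.6% at PND5 (14 regions).

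**Figure D1:**
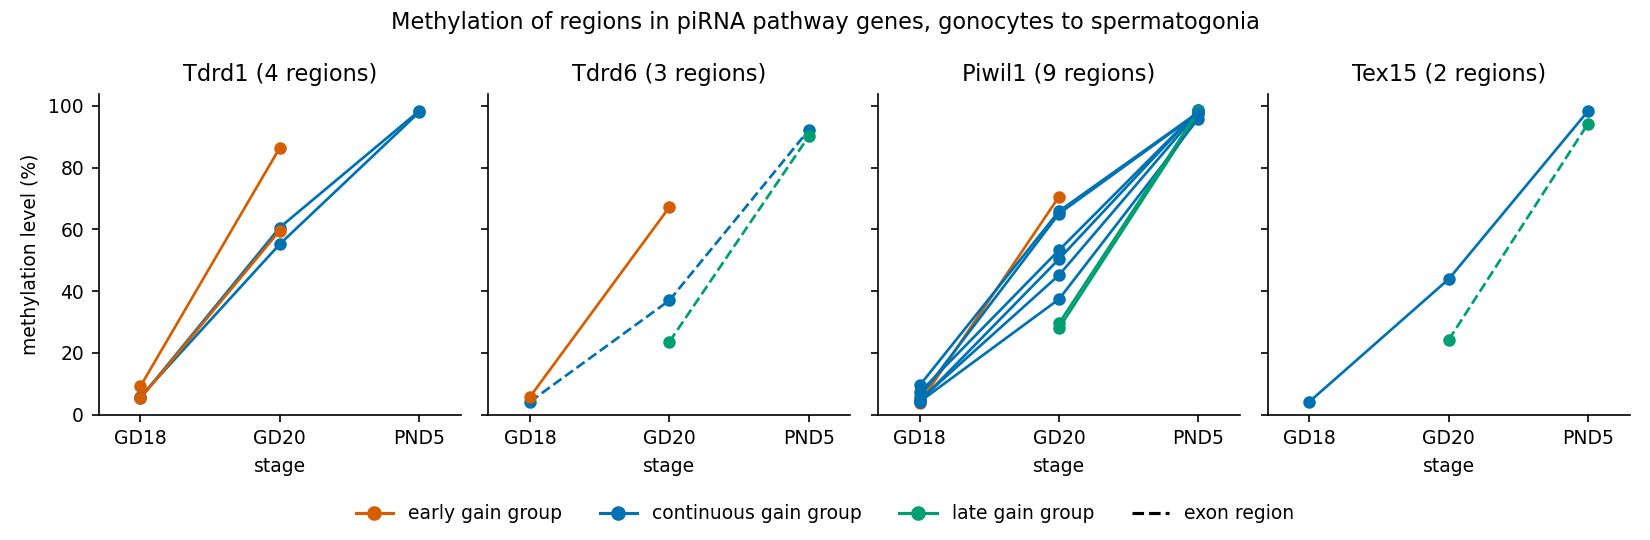
Methylation level (%) of the 18 regions of Tdrd1, Tdrd6, Piwil1 and Tex15 that gained methylation, at the stages where the authors list a level. Each line is 1 region, coloured by the authors' gain group, with exon regions dashed; the levels given run from 3.8% to 9.5% at GD18, from 23.6% to 86.4% at GD20 and from 90.1% to 98.6% at PND5.

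Piwil1, the PIWI protein of meiotic and haploid germ cells, held regions of very different pace along its introns. In the direction of transcription, intron 4 rose from 3.8% at GD18 to 70.6% at GD20. Intron 7 then stood at 50.4%, intron 8 at 65.9%, intron 10 at 53.3% and intron 13 at 45.2% at GD20. The 2 regions of intron 15 stood at 28.0% and 37.4%, intron 19 at 29.6% and intron 20 at 65.1%. Levels at GD20 were thus lowest in introns 15 to 19, and higher on both sides of them. At PND5 the difference was gone, with levels of 95.9% to 98.6% in the 8 regions that have a value there. Spearman's rho between the distance from the intron 4 region and the GD20 level was -0.53 over the 9 regions, which come from the same stage means and the same gene.

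The 9 regions of Piwil1 lay within chromosome 12 from 31610518 to 31625722, with 14594 bp between the midpoints of the outermost regions. Gains from GD18 to GD20 were listed in 7 of them, by 33.2 points in the 3' region of intron 15 to 66.8 points in intron 4. Gains from GD20 to PND5 were listed in 8, by 32 points in intron 8 to 69.3 points in the 5' region of intron 15. In the authors' deposited table the adjusted p was at most 1.35e-06 in the first and at most 5.33e-07 in the second step. The gain in intron 4 exceeded 94.4% of the gains of the whole GD18 to GD20 list. The gain in the 96 bp region at the 5' side of intron 15 (chromosome 12, 31617803 to 31617898, 6 CpGs) exceeded 95.4% of the gains of the GD20 to PND5 list.

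**Figure D2:**
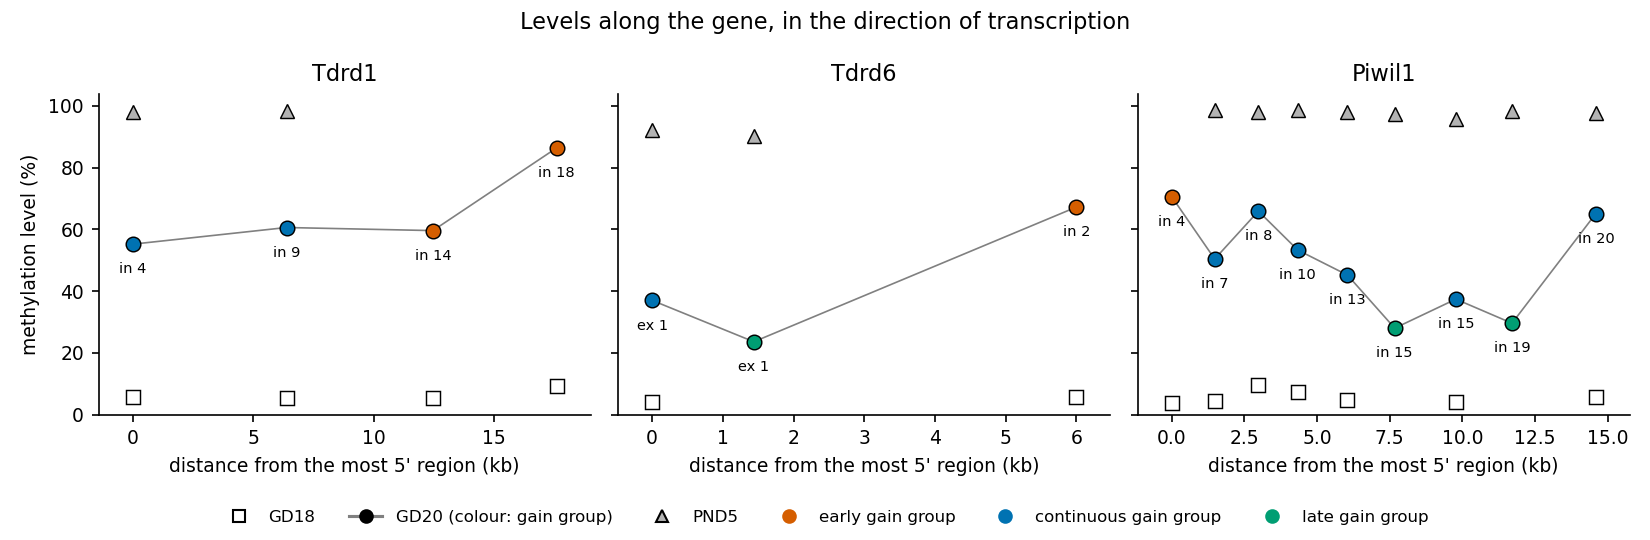
Methylation level (%) at GD18 (squares), GD20 (circles, coloured by gain group) and PND5 (triangles) against the distance (kb) from the most 5' gain region of Tdrd1, Tdrd6 and Piwil1; labels give the exon (ex) or intron (in). GD20 levels in Piwil1 fall to 28.0% in intron 15 and stand at 65.1% in intron 20, while GD18 levels reach at most 9.5% and PND5 levels at least 90.1%.

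Tdrd1, the Tudor scaffold of the granules between mitochondria, rose from GD18 to GD20 in all 4 of its regions. Intron 4 (chromosome 1, 277652879 to 277653288) rose from 5.8% to 55.2%, and intron 9 from 5.4% to 60.6%. Intron 14 rose from 5.3% to 59.6%. Intron 18 (chromosome 1, 277670441 to 277670937) rose from 9.2% to 86.4%, by 77.2 points, more than 99.5% of the regions of the list. In the authors' deposited table the adjusted p was at most 9.36e-12 in these 4 regions. The region with the highest GD20 level was also the one with the fewest CpGs, 5 against 15, 20 and 10 in the others. Introns 4 and 9 were listed again to PND5 and reached 97.9% and 98.3%, whereas introns 14 and 18 were not listed at that step and have no PND5 level.

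Tdrd6, a Tudor protein of the chromatoid body, held a continuous and a late gain region in its first exon and an early one in an intron. In exon 1 the region nearest the 5' end (chromosome 9, 19919810 to 19920495, 18 CpGs) rose from 4.2% at GD18 to 37.0% at GD20 and 92.1% at PND5. The next region of exon 1, 718 bp downstream, stood at 23.6% at GD20 and 90.1% at PND5, a gain of 66.5 points (adjusted p = 1.4e-37 in the authors' deposited table). Intron 2 (chromosome 9, 19925731 to 19926569) rose from 5.8% to 67.2% by GD20 (adjusted p = 1.19e-14 in the authors' deposited table). The GD20 level of intron 2 lay 43.6 points above that of the second exon region. Of 909 other genes with 3 gain regions, 10.2% had a larger range at GD20, and their median range was 23.0 points. The ranges in Tdrd1 and Piwil1, 31.2 and 42.6 points, were close to the medians of 29.2 and 40 points in genes with as many gain regions.

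Tex15, the nuclear factor of piRNA-directed methylation, gained late at exon 1 and continuously at the end of transcription. Exon 1 (chromosome 16, 62321181 to 62321724, 7 CpGs) rose from 24.2% at GD20 to 94.2% at PND5, and this gain of 70.0 points was the largest of the 14 at that step. It exceeded 95.9% of the list. The region at the end of transcription (chromosome 16, 62312077 to 62312524, 10 CpGs) stood at 4.2%, 43.9% and 98.3% at GD18, GD20 and PND5. In the authors' deposited table the adjusted p was 4.42e-10 for its first gain and 1.04e-13 for its second.

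The authors placed 4 of the 18 gain regions in the early group (Group1), 10 in the continuous group (Group2) and 4 in the late group (Group3). The shares of 22.2%, 55.6% and 22.2% stood beside 17.0%, 68.6% and 14.4% over the 28613 annotated gain regions. The early regions were 2 introns of Tdrd1, intron 2 of Tdrd6 and intron 4 of Piwil1. The late regions were 1 of the regions in exon 1 of Tdrd6, exon 1 of Tex15, and in Piwil1 the 5' region of intron 15 and intron 19. Tdrd6 and Piwil1 held regions of all 3 groups, which was so in 8.36% of the 909 other genes with 3 gain regions and in 43.2% of 95 other genes with 9. Early member regions were listed at the first step only, late ones at the second only and continuous ones at both. The late ones stood at 23.6% to 29.6% at GD20 and have no GD18 level. A gain of under 30 points before GD20 would not be listed for them. In the 10 continuous regions the part of the gain reached by GD20 ranged from 36.2% in the 3' region of intron 15 of Piwil1 to 64.6% in its intron 20. The median was 49.7%, beside 52.9% over 19615 annotated regions listed at both steps (interquartile range 45.8% to 59.2%).

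**Figure D3:**
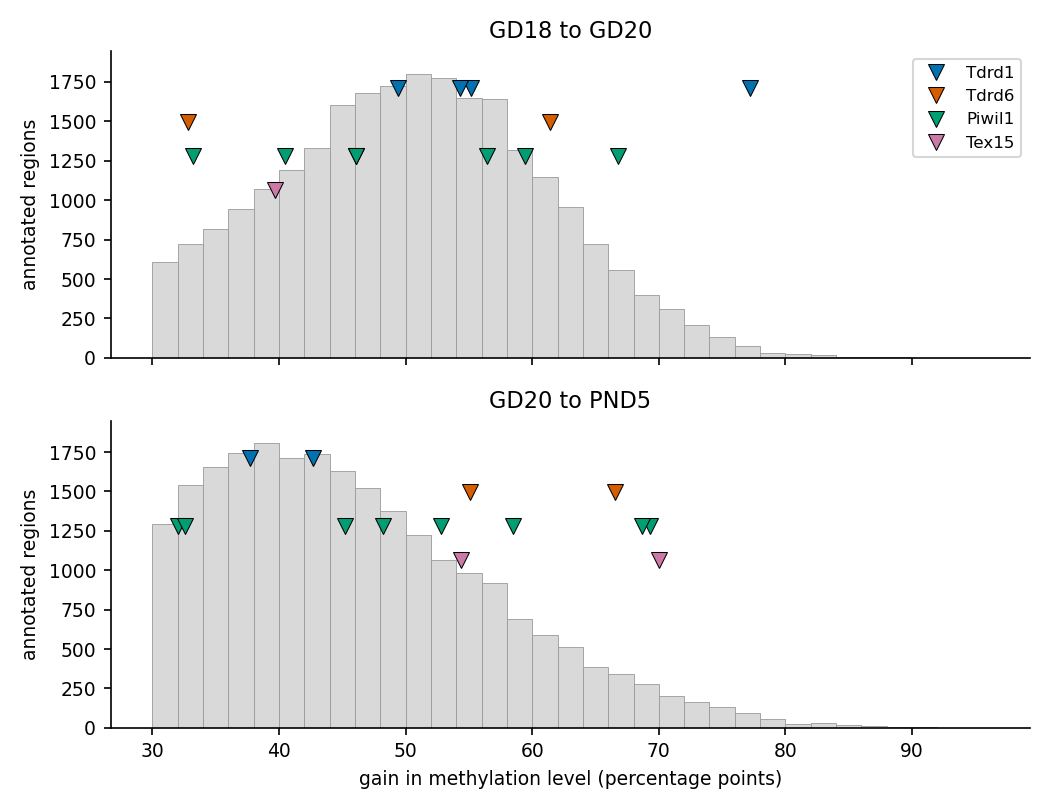
Number of annotated regions by gain in methylation level (percentage points) from GD18 to GD20 (top) and from GD20 to PND5 (bottom), with the gains of Tdrd1, Tdrd6, Piwil1 and Tex15 as triangles at a height without meaning; 2 Piwil1 regions coincide at 46.1 points in the top panel. Intron 18 of Tdrd1 lies at 77.2 points in the upper tail of the first step, and exon 1 of Tex15 at 70.0 points in that of the second.

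Over the 14 regions of the first step the median gain was 51.9 points, beside 50.6 over all annotated regions. Over the 14 regions of the second step it was 53.6 points, beside 44.4. The starting levels of the second step stood lower in the members, at a median of 44.6% against 50.4%, and their median end was 97.9% against 96.8%. Of all annotated regions of this step 16.1% ended under 90%, whereas 0 of the 14 member regions did. Of these 14, 8 are intron regions of the same gene, Piwil1, so they are not independent.

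Among the member regions listed from GD20 to PND5, exon regions stood lower at PND5 than intron regions, which came from other genes. The 3 exon regions, 2 of Tdrd6 and 1 of Tex15, reached 92.1%, 90.1% and 94.2%. The 10 intron regions, 8 of Piwil1 and 2 of Tdrd1, reached 95.9% to 98.6%, without overlap. No gene held both kinds with a PND5 level, so gene part and gene cannot be told apart here. At GD20 the exon regions stood at 37.0%, 23.6% and 24.2%, and the same 10 intron regions ranged from 28.0% to 65.9%, with overlap. The other 4 introns, all of the early group, stood at 59.6% to 86.4% at GD20 and have no PND5 level. Listing at this step needs a gain of 30 points, so regions with high GD20 levels are left out of all values here. All 3 exon regions lie in exon 1, and regions of exon 1 listed at this step were lower in general. Over 165 such annotated regions the median was 37.5% at GD20 and 95% at PND5, against 51.5% and 96.9% over 17787 intron regions. Over all 3055 exon regions it was 46.5% and 96.7%. No test was made, since the regions of a gene share their samples and the levels carry no spread between samples.

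**Figure D4:**
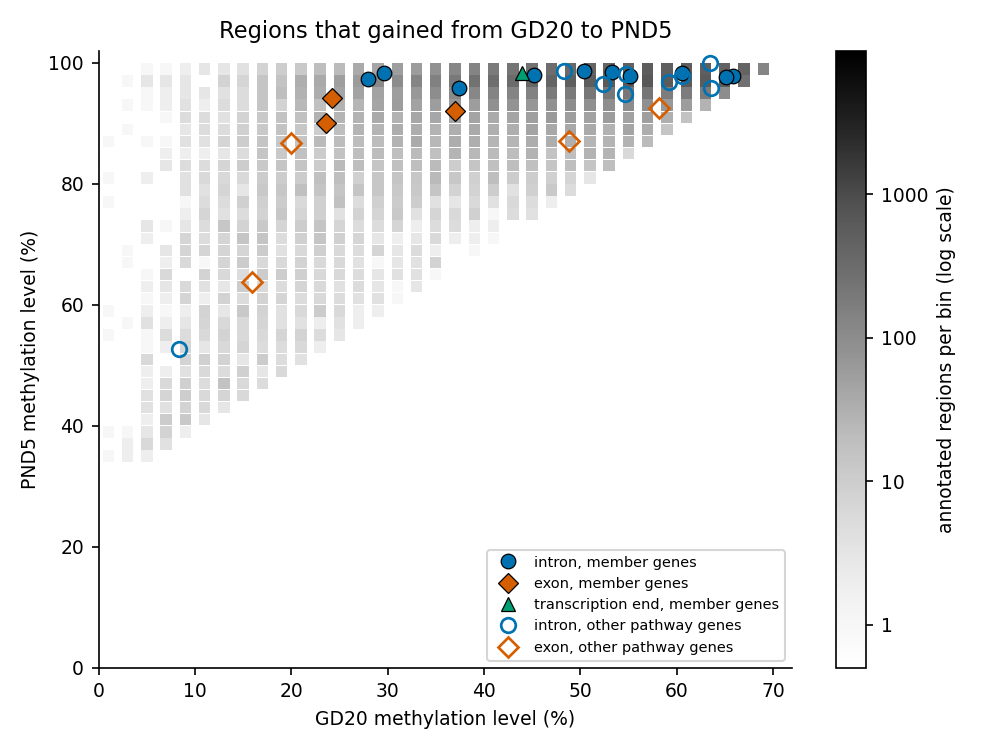
Methylation level (%) at PND5 against that at GD20 in regions that gained between these stages; filled symbols are regions of the member genes, open symbols those of other piRNA pathway genes, and grey squares count all annotated regions on a log scale. The exon regions (diamonds) of both sets lie under 95% at PND5, and the introns of the members, all of Piwil1 or Tdrd1, above it.

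The 20 regions of the 5 genes had a median of 9.5 CpGs and 1.83 CpGs per 100 bp, beside 8 and 2.09 over all annotated regions. Over the 18 regions with a GD20 level, Spearman's rho between CpG density and this level was -0.39, and over 28611 annotated regions it was -0.15; the points share the stage means and were not tested. Introns made up 70% of the members and 75.3% of all annotated regions, and exons 20% and 12.6%.

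In spermatids the promoter of Asz1, the mitochondrial anchor of the piRNA granules, gained methylation and lost it again. The region (chromosome 4, 45414205 to 45414713, 14 CpGs) stood at 5.5% in R1-8, at 19.0% in R9-12 and at 2.1% in R13-14. In the authors' deposited table the gain of 13.5 points had an adjusted p of 4.86e-06, and the later change of -16.9 points one of 3.98e-09. From R1-8 to R9-12 it was the only member region listed, 1 of 20 (5%), beside 2.32% of all annotated regions with a gain. The promoter was not listed at any fetal or neonatal step, so that it has no level before R1-8, nor one after R13-14.

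A gain followed by a loss was listed for 1607 regions in all, with medians of 8.3%, 24.2% and 6.8%. They were 43.2% of the 3722 regions of the R1-8 to R9-12 list and 28.6% of the 5612 regions of the next. Both steps share the R9-12 level, so an error in it would move them in opposite directions. In 43 annotated promoter regions of this course the medians were 6.6%, 21.1% and 5.0%, and 31 of them stood higher than Asz1 in R9-12. Asz1 ended 3.4 points below its R1-8 level, and 68.5% of the 1607 regions ended below theirs, with a median net change of -1.4 points. The authors placed Asz1 in cluster 3, in which 18.6% of 601 annotated regions listed from R9-12 to R13-14 had a larger loss.

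A region of exon 1 of Tdrd6 (chromosome 9, 19922837 to 19923465, 9 CpGs) fell from 26.8% in R9-12 to 5.9% in R13-14, by 20.9 points (adjusted p = 6.62e-05 in the authors' deposited table). With Asz1, 2 of 20 regions (10%) lost methylation at this step, beside 5.07% of all annotated regions. The loss was larger than 85.7% of the changes in the whole list. In the authors' cluster 4, to which the region belongs, 11.1% of 287 listed annotated regions had a larger loss, and the median change was -13.4 points. The region lies in the same exon as the 2 regions that ended at 92.1% and 90.1% at PND5, and 868 bp beyond the nearer one. The lists used here hold no PND5 level for it, no spermatid level for the other two, and no comparison of PND5 with spermatids. No member region was listed from R13-14 to R15-17 or from R15-17 to spermatozoa. Only annotated regions could be assigned to a gene. They numbered 1104, beside 3023 in the whole list, and 455, beside 1691, in the same order. Of all annotated regions, 2.99% gained and 0.69% lost at the first of these steps, and 0.92% gained and 0.60% lost at the second. With 20 regions, a count of 0 is near these shares.

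**Figure D5:**
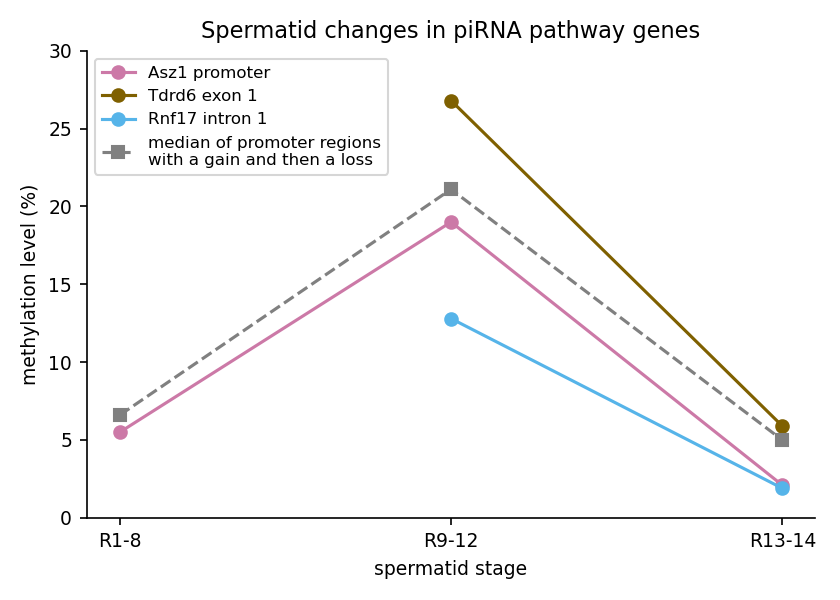
Methylation level (%) in spermatids of the ranges R1-8, R9-12 and R13-14 for the listed regions of Asz1, Tdrd6 and Rnf17, with the median of 43 promoter regions that gained and then lost methylation (dashed). Asz1 runs from 5.5% through 19.0% to 2.1%, and Tdrd6 from 26.8% to 5.9%.

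Of 22 other genes of the piRNA pathway, 7 held an annotated region, with 16 regions in all; 3 of the 22 have no curated (NM) transcript in the name table and could not be matched in that way. From GD18 to GD20, 4 of 22 genes gained (18.2%), and from GD20 to PND5 6 of 22 (27.3%). The background over 18539 genes with such a transcript was 37% and 39.8%, and over the 19 pathway genes with one the shares were 21.1% and 31.6%. The PIWI genes gained at both steps. Piwil2, which acts in fetal piRNA production in mouse, rose in intron 20 from 5.6% through 60.6% to 97.9%. Piwil4, the nuclear PIWI protein of mouse gonocytes, rose in 4 regions, with exon 14 going from 4.4% through 58.2% to 92.6% and intron 16 from 6.1% through 59.2% to 96.8%. The largest change of Piwil4 was in exon 14 in the first step, by 53.8 points, and in intron 1 in the second, by 40.2 points to 94.8%.

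Among Tudor genes, Tdrd5, which acts in chromatoid body assembly in mouse, held 6 regions. Its intron 11 rose from 8.0% to 73.2% by GD20, and its exon 2 from 20% at GD20 to 86.7% at PND5. Tdrd7, a further chromatoid body gene, rose in exon 16 from 15.9% to 63.7%. Mael, a factor of transposon silencing, rose in intron 2 from 8.3% to 52.7%. These PND5 levels of Tdrd5 exon 2, Tdrd7 and Mael lay below those of the 14 member regions listed at the same step, the lowest of which was 90.1%. Other regions of Tdrd5 did not, as its introns 9, 7, 6 and 2 reached 95.9%, 96.5%, 100% and 98.1%. Fkbp6, a co-chaperone of piRNA loading, rose in intron 4 from 10.6% to 73.1% by GD20 and in intron 8 from 48.3% to 98.7% by PND5. All 4 exon regions of the other pathway genes ended under 95% at PND5, at 63.7% to 92.6%. Of their 9 introns 2 did, at 52.7% in Mael and 94.8% in Piwil4. Over all annotated regions 32.5% of exon regions, 49.7% of exon 1 regions and 29.1% of intron regions were under 95%. This limit lies between the exon and intron values of the members, so their separation at it adds nothing.

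Rnf17, a Tudor protein of spermatids, was the only one of the 22 genes with an annotated region listed in spermatids. Its intron 1 fell from 12.8% in R9-12 to 1.9% in R13-14 (adjusted p = 0.006 in the authors' deposited table). This was 1 of 22 genes (4.55%), or 1 of the 19 with a curated transcript (5.26%), beside 6.24% of all genes with one. The genes without an annotated region include Ddx4, Mov10l1, Tdrd9 and Tdrkh. A gene without an annotated region may have changed by less than the authors' smallest difference or may not have been captured. It may also hold listed regions that were not annotated to a gene. The lists do not tell these apart. They hold 60036 distinct regions, beside 29951 annotated ones. From R9-12 to R13-14, 1946 annotated regions were listed, beside 5612 regions in the whole list.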

How the data were processed

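The deposited tables give, for each region and step, the methylation level in both stages as a fraction from 0 to 1, by the column names a mean over CpGs. They also give a p-value from a two-sample t-test with an FDR-adjusted value, per the file headers. Whether it ran over CpGs or samples was not stated, so it is not read as the spread between samples. The submitters' processing notes name Bowtie2 and Bismark 0.19.0. Per the design text, levels were extracted per sample and segmented, and regions were then searched. Only captured sequence carries values. Genome build, coverage minimum and pooling: not given in the sources used here. Depth is unknown.

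Annotated regions were joined to the 7 lists at an overlap of 1 bp or more, and all 20 member regions matched exactly. Transcripts were matched to symbols with the RefSeq table of GRCr8, used for names only; 94.1% of 29951 annotated regions had a symbol. Differences are the later minus the earlier stage. The join was tested on simulated data. Counts, medians and ranges were computed in Python 3.11.15 with numpy 2.4.6 and scipy 1.17.1. No test was added to the authors' own, because the files hold stage means. Separate animals for the 4 samples of a stage are not stated in the labels. Named genes are the 5 members with all their regions and the other pathway genes with a region. The members, the list of 22 other pathway genes and the alternatives were chosen with earlier results of these data known. Alternatives were other thresholds, symbol matching, overlap, region size and averaging.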

Additional observations from a re-analysis of the deposited data

How the results depend on the processing

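Of 75 alternative values 69 stayed within 1.5 times the reported count or within the spread among regions. Many of them could not move, so the 69 do not measure robustness. Every listed region had at least 5 CpGs, and the shortest member region was 96 bp. In the authors' deposited table the largest adjusted p of a member was 6.62e-05. All 20 member regions matched exactly, and levels of a shared stage did not differ between lists. A count of 0 could not fall under a stricter cut. A stricter difference moved the other 6, each because fewer changes pass it. At 50 points or more, 7 member regions were counted at the GD18 to GD20 step. At the GD20 to PND5 step 8 member regions and 2 other pathway genes were counted. At 20 points or more in spermatids, 0 member regions were counted from R1-8 to R9-12 and 1 from R9-12 to R13-14, and 0 other pathway genes at the latter step. The other alternatives run were an adjusted p of 0.001, synonyms, identical regions, regions of at least 50 bp and 5 CpGs, unannotated regions between a gene's outermost ones, averaging by CpGs or by gene, and the later of 2 lists for a shared stage. No paired analysis was possible because the files hold stage means and no values per sample, and for the same reason leaving out a replicate was not run. The unknown depth limits every single level.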

Other observations

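Listed regions lay around most of the 5 genes as well. Regions within 50 kb of the outermost ones, and not annotated to the gene itself, were counted. They were 9 for Tdrd1, 5 for Tdrd6, 9 for Piwil1 and 6 for Tex15. Their fetal and neonatal changes were all gains, 14, 9, 11 and 9 of them in the same order. This direction was that of the lists, with gains in all 44477 regions from GD18 to GD20 and in 46661 of 46665 from GD20 to PND5. Around the Asz1 promoter region 0 other regions were listed within 50 kb at any of the 7 steps, so that its change in spermatids stood alone in this window in the lists used here. How much of this window was captured is unknown. Near Piwil1, 4 spermatid changes were listed and near Tdrd1 1, and none near Tdrd6 or Tex15.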
